A study of Mus musculus with 2 samples.

Results

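The carboxylesterases described here are 10 mouse genes, *Ces1b*, *Ces1c*, *Ces1d*, *Ces1e*, *Ces1f*, *Ces1g*, *Ces2a*, *Ces2e*, *Ces3a* and *Ces3b*, chosen by symbol from the 21878 symbols listed in the deposited tables. They were measured by polyA RNA sequencing in liver from FVB/N mice into which c-Myc had been introduced by hydrodynamic injection, a fast, large-volume injection that carries DNA into liver cells. There were 2 libraries: 1 from an injected liver given no treatment (untreated) and 1 from an injected liver given TSA. Both groups carry c-Myc, and no liver without it was analysed here. The labels name no promoter for the injected c-Myc, no dose or time for TSA, no age, and no number of animals behind a library, and they do not say whether tumour or surrounding tissue was taken. The series title links TSA to slower c-Myc liver tumour development through phosphorylated AKT and ADH4.

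Carboxylesterases are serine hydrolases that cut esters, thioesters and amides. Most of them sit in the lumen of the endoplasmic reticulum of hepatocytes, where they clear drugs and other foreign esters and also act on triglycerides and cholesteryl esters bound for storage or secretion. In the mouse the family was widened by tandem duplication, so its members lie side by side and resemble each other closely. The Ces1 group includes a plasma esterase and triglyceride hydrolases, the Ces2 group acts on drugs and acylglycerols, and the Ces3 group is a pair of liver esterases.

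The sequence upstream of the start site is shown for 4 members. *Ces1c* had the highest level, *Ces1b* lies beside it and has a closely related upstream region, *Ces3b* had the largest ratio between the libraries and *Ces2e* the smallest. Each is the 250 bases before the start site from RefSeq, build GRCm38.p6, 5′ to 3′ on the strand of the gene: chr8:93131284-93131533 (minus strand) for *Ces1c*, chr8:93079941-93080190 (minus strand) for *Ces1b*, chr8:105083505-105083754 (plus strand) for *Ces3b* and chr8:104926010-104926259 (plus strand) for *Ces2e*. Capitals mark every match to 7 short motifs searched on both strands, which are spelled out after the lines.
Ces1c: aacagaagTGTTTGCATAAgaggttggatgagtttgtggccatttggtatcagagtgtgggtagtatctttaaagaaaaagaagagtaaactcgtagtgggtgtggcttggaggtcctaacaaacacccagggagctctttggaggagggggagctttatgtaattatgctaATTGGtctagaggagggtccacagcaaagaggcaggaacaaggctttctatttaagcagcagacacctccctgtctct
Ces1b: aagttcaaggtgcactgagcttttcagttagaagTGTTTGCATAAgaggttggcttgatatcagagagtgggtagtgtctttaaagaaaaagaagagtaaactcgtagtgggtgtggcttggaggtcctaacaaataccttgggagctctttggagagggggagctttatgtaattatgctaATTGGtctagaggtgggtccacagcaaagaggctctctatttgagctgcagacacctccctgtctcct
Ces3b: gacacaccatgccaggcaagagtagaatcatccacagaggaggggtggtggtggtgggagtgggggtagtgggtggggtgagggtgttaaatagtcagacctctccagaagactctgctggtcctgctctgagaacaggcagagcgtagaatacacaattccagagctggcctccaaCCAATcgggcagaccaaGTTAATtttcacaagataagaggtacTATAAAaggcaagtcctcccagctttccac
Ces2e: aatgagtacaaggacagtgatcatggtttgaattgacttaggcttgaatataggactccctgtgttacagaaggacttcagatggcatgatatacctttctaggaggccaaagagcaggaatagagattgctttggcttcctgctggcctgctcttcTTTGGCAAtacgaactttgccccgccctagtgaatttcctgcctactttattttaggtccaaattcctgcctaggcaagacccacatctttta

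Upstream regions were in the table for 7 members, all but *Ces1d*, *Ces1f* and *Ces3a*, and *Ces1b* had 2 entries. The upstream regions of *Ces1b* and *Ces1c* were 94.6% identical over 223 aligned bases. The letters of a C/EBP-type site, searched as TTGCNNAA, were found upstream of 4 of the 7 genes (*Ces1b*, *Ces1c*, *Ces2a* and *Ces2e*) and in 9.56% of all 32851 upstream regions. Those of a forkhead site, searched as TGTTTNC, were found for *Ces1b* and *Ces1c* and in 17.8% of all regions. In both genes the forkhead match overlaps the C/EBP-type match, and it begins at -242 from the start site in *Ces1c* and at -216 in *Ces1b*. The CCAAT box, searched by those 5 letters, was found for 5 of 7 genes and in 33.9% of all regions. *Ces3b* alone among these 7 had the HNF1 half-site, searched as GTTAAT, at -56, which 6.43% of all regions hold. It also had the TATA box, searched as TATAAA, at -30, which was found for *Ces1g* too and in 12.4% of all regions. The nuclear receptor half-site, searched as AGGTCA, was found for *Ces2a* and in 14.0% of all regions. The E-box, searched as CACGTG, was found for none of the 7 and in 6.02% of all regions. *Ces1e* had no match to any of the 7 motifs. All member regions were poor in CpG pairs, with 0 to 2 each, as were 29.0% of all regions. A match describes letters and not a bound site.

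The libraries held 17281523 (untreated) and 17088227 (TSA) counts. With 1 library a group there is no replicate check, and the 95% intervals in parentheses cover counting error only. The deposited FPKM, counts scaled for gene model length and for library depth, are used to compare genes. Ratios between libraries are of counts scaled by TMM (trimmed mean of M-values), and calls are made from a 2-fold difference upward, provided that the interval leaves out 1. Of 13027 genes with at least 20 summed counts, 26.0% were higher with TSA and 27.4% lower. The TSA library was the richer in hepatocyte transcripts: *Alb*, for albumin, had 45600 and 1426219 counts (untreated, then TSA), while *Afp*, for the fetal alpha-fetoprotein, had 94320 and 125. All 10 hepatocyte markers were higher, by 2.46-fold to 123-fold (9 with total counts), their summed level being 7621 and 165673 CPM (counts relative to the TMM-scaled library size), none was at 0, and all 6 proliferation markers were lower. Mouse *Myc* had 55 and 763 counts. In bulk liver fewer hepatocytes and less of a transcript per hepatocyte cannot be told apart.

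All 10 carboxylesterases were higher in the TSA library. These members were chosen with earlier results of these data known, so setting them beside the shares of all genes is a description and not a test. Of the other 9 carboxylesterase symbols listed, 4 had enough counts, of which 3 were higher and 1 lower. Together the 10 members took 1287 counts without treatment and 163648 with TSA, or 0.00745% and 0.958% of the library. Their summed ratio was 232-fold (219.7 to 245), and it was 128.6-fold with total-count scaling, under which all 10 were still called higher, as were 16.0% of all genes, while 48.7% were lower. Each of the 10 was at least 10-fold higher, as were 7.81% of the genes tested, and 8 were at least 100-fold higher, as were 1.94%. The median log2 ratio of the 10 was 8.01, against -0.11 for all genes tested. By size alone, 508 of the 13027 genes had a ratio at least as large as the lowest member, *Ces2e*, and 7 had one at least as large as the highest, *Ces3b*.

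**Figure D1:**
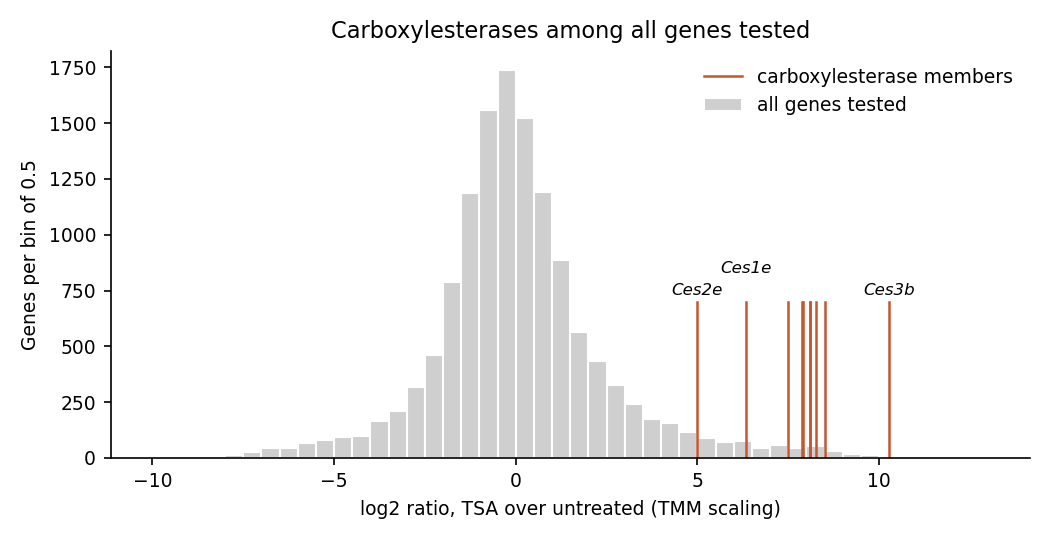
Histogram of the log2 ratio TSA over untreated (TMM scaling) for the 13027 genes tested, in bins of 0.5, with a vertical line for each of the 10 carboxylesterases. The members lie in the right tail, from *Ces2e* at 4.99 to *Ces3b* at 10.28, while the median of all genes is -0.11.

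*Ces1c*, for the esterase that rodents secrete into plasma, was the most abundant member in either library. Its 525 untreated counts (16.5 FPKM) stood against 67953 counts (2161 FPKM) with TSA, a ratio of 236-fold (217 to 258). In the order of all genes by FPKM it stood at place 4290 without treatment and at place 22 with TSA. Its neighbour *Ces1b* had 59 counts (1.70 FPKM) and 9907 counts (288 FPKM), a ratio of 306.5-fold (237 to 403). The intervals of these neighbours overlap. Their longest open reading frames were 91.2% identical, the closest pair of the Ces1 members, and 10.7% of the 50-base stretches of the *Ces1c* transcript also occur in *Ces1b*. Reads from such stretches cannot be assigned to one gene from sequence alone, and the way they were counted is not stated in the labels or file headers.

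*Ces1d*, for a triglyceride hydrolase that supplies lipid for very low density lipoprotein (VLDL), had the largest ratio of the Ces1 members. It went from 119 counts (3.50 FPKM, untreated) to 23988 counts (714 FPKM, TSA), or 368-fold (307 to 444). *Ces1f*, which is also named TGH-2 as a second such hydrolase, had 53 counts (1.58 FPKM) and 7956 counts (239.5 FPKM), or 274-fold (209 to 366). *Ces1g*, for a liver hydrolase tied to lipid balance, had 57 counts (1.44 FPKM) and 7545 counts (193 FPKM), or 242-fold (186 to 319). The intervals of *Ces1f* and *Ces1g* overlap each other and that of *Ces1c*.

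*Ces1e* stood apart within the Ces1 group. It codes for egasyn, which holds beta-glucuronidase in the endoplasmic reticulum. Untreated liver gave 102 counts (2.83 FPKM) for it, and the TSA library 4521 counts (127 FPKM). Its ratio of 80.9-fold (66.5 to 99.4) lay below the intervals of the other 5 Ces1 members, the lowest of which starts at 186-fold. *Gusb*, for beta-glucuronidase itself, had 2732 and 525 counts and was 2.85-fold lower with TSA (ratio 0.351, interval 0.319 to 0.385).

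The Ces2 members differed from each other. *Ces2a* took 62 counts (1.83 FPKM) when untreated, against 6166 counts (184 FPKM) with TSA, a ratio of 181.5-fold (141 to 237). *Ces2e* had 144 counts (2.85 FPKM) and 2509 counts (50.2 FPKM), a ratio of 31.8-fold (26.9 to 37.9). The interval of *Ces2e* lies below those of the other 9 members, and its ratio was the one member ratio below that of *Alb*, which was 57.1-fold (56.6 to 57.6). Their reading frames were 83.3% identical, and 3.36% of the 50-base stretches of *Ces2e* occur in another gene. For *Ces2a* that share was 22.2%, and nearly all of these stretches, 20.9% of the transcript, match the pseudogene *Gm7208*.

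The Ces3 pair was the closest in sequence and far apart in ratio. *Ces3a* took 151 counts (4.19 FPKM) when untreated, against 22866 counts (642 FPKM) with TSA, or 276-fold (235.5 to 326.5). *Ces3b* had 15 counts (0.275 FPKM) and 10237 counts (189.8 FPKM), or 1246-fold (755 to 2226). The intervals do not overlap, although the *Ces3b* ratio rests on 15 counts in the untreated library. With 2 added to every count it was 1099-fold, and with 0.1 added to the deposited FPKM it was 506-fold. The reading frames of the pair were 95.3% identical, and 30.9% of the 50-base stretches of *Ces3a* occur in *Ces3b*. The pair summed had 166 and 33103 counts, a ratio of 364-fold (312.5 to 426.5). This sum depends less on a split of reads between the copies than either ratio does. It still depends on how shared reads were counted, which is not stated.

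**Figure D2:**
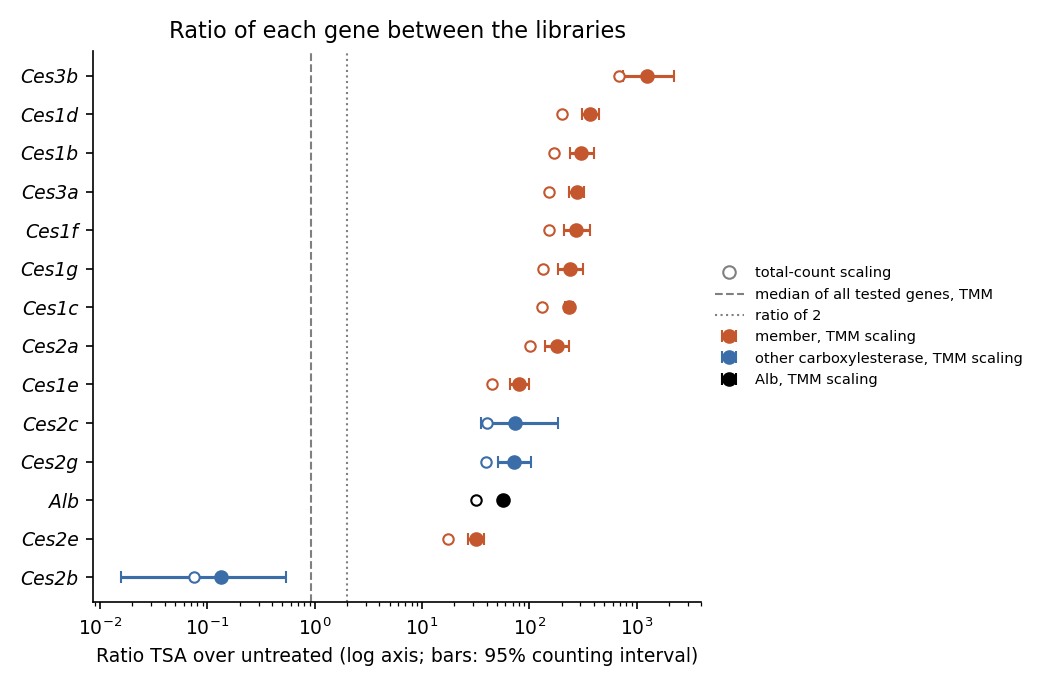
Ratio TSA over untreated on a log axis for the 10 members, 3 other carboxylesterases and *Alb*: filled points use TMM scaling with 95% counting intervals as bars, open points total-count scaling, the dashed line the median of all genes tested and the dotted line a ratio of 2. *Ces3b* stands highest at 1246-fold, *Ces2e* lowest of the members at 31.8-fold, and *Ces2b* is the one carboxylesterase to the left of the lines, at a ratio of 0.135.

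By group, the summed ratio was 243-fold (228 to 259.7) for the 6 Ces1 members, 76.9-fold (66.9 to 88.7) for the 2 Ces2 members and 364-fold for the Ces3 pair. The Ces1, Ces2 and Ces3 intervals do not overlap one another, but this does not hold for each member. The interval of *Ces2a* (141 to 237) overlaps that of *Ces1c* (217 to 258), and that of *Ces3a* (235.5 to 326.5) overlaps the Ces1 sum. *Ces2e* held 144 of the 206 untreated Ces2 counts, and the higher Ces3 member, *Ces3b*, had 15 untreated counts. Members of different groups were 62.9% to 65.3% identical in reading frame, and Ces1 members were 74.55% to 91.2% identical to each other.

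The order of the levels differed between the libraries. In the untreated library *Ces1c* led at 16.5 FPKM, *Ces3b* came last at 0.275 FPKM, and the other 8 lay between 1.44 and 4.19 FPKM in the order *Ces3a*, *Ces1d*, *Ces2e*, *Ces1e*, *Ces2a*, *Ces1b*, *Ces1f* and *Ces1g*. Each of these 8 overlaps its neighbour in the order when counting error is considered. In the TSA library the order was *Ces1c*, *Ces1d*, *Ces3a*, *Ces1b*, *Ces1f*, *Ces1g*, *Ces3b*, *Ces2a*, *Ces1e* and *Ces2e*, from 2161 down to 50.2 FPKM. There the neighbours *Ces1g*, *Ces3b* and *Ces2a*, at 193, 189.8 and 184 FPKM, overlap in turn, and the other neighbouring pairs do not. The spread between animals was not measured, so these overlaps concern counting error alone.

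**Figure D3:**
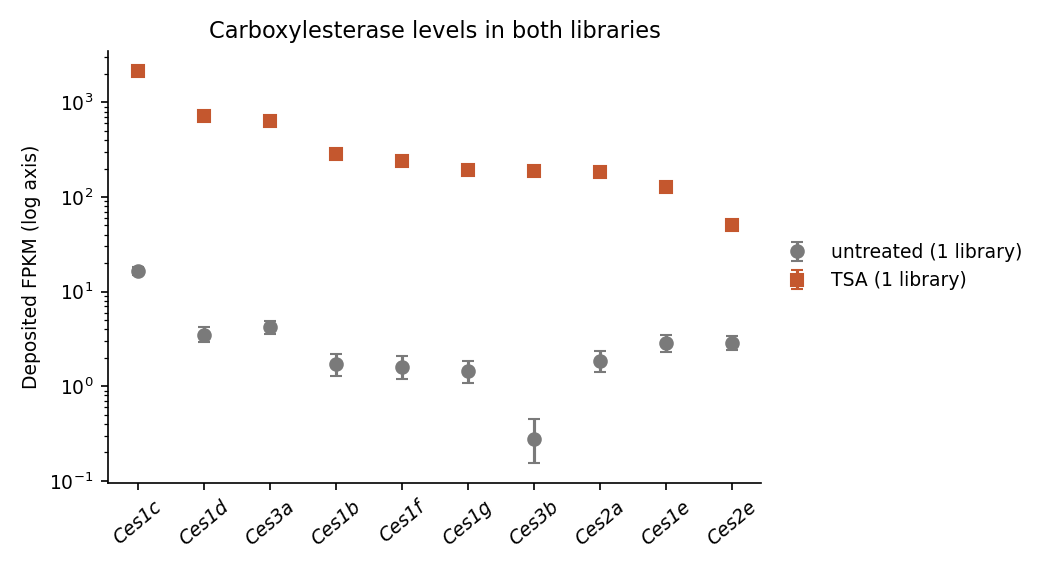
Deposited FPKM of the 10 carboxylesterases on a log axis in the untreated library (gray circles) and the TSA library (orange squares), ordered by the TSA level, with exact 95% Poisson intervals of the counts as bars (hidden by the symbols with TSA). Every TSA value, from 50.2 FPKM for *Ces2e* upward, lies above every untreated value, of which *Ces1c* at 16.5 FPKM is the highest.

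Shares within the family do not depend on library scaling. *Ces1c* made up 44.98% of the summed member FPKM without treatment and 45.13% with TSA. *Ces1d* went from 9.54% to 14.9% and *Ces3a* from 11.4% to 13.4%. *Ces3b* went from 0.749% to 3.96%, while *Ces2e* went from 7.76% to 1.05% and *Ces1e* from 7.71% to 2.65%. The remaining 4, *Ces1b*, *Ces1f*, *Ces1g* and *Ces2a*, each held 3.84% to 6.02% in either library. As shares of counts, with exact Clopper-Pearson intervals, *Ces2e* took 11.2% (9.52% to 13.04%) without treatment and 1.53% (1.47% to 1.59%) with TSA. *Ces1c* took 40.8% (38.1% to 43.5%) and 41.5% (41.3% to 41.8%), which overlap.

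**Figure D4:**
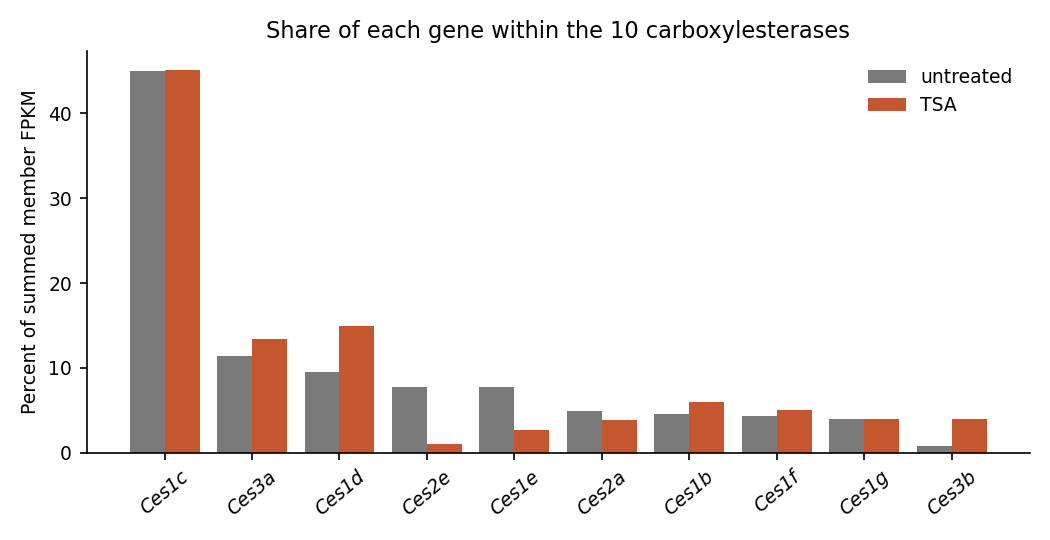
Share of each gene in the summed FPKM of the 10 carboxylesterases, in percent, for the untreated (gray) and TSA (orange) library, 1 library each. *Ces1c* holds 44.98% and 45.13%, the bars of *Ces2e* and *Ces1e* are shorter with TSA, and those of *Ces1d* and *Ces3b* are taller.

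The other 9 carboxylesterase symbols in the tables had at most 34 counts without treatment and at most 1331 with TSA. *Ces2g* had 34 and 1331 counts (0.585 and 23.2 FPKM), 71.4-fold (50.9 to 104) higher with TSA, and *Ces2c* had 7 and 282 counts (0.206 and 8.38 FPKM), 73.5-fold (35.2 to 184.5) higher. *Ces4a* had 0 counts without treatment and 36 with TSA. With the untreated count set to a floor of 3 it was 21.9-fold (6.92 to 111) higher. *Ces2b* went the other way. The untreated library gave it 27 counts (0.457 FPKM) and the TSA library 2 (0.0342 FPKM), a ratio of 0.135 (0.0156 to 0.538), although its reading frame is 92.1% identical to that of *Ces2c*. With an interval bound of at least 2-fold asked for, *Ces2b* was not called. *Ces1a* (0 and 8 counts), *Ces2f* (2 and 1) and *Ces2h* (5 and 6) were under the count minimum, and no count fell on *Ces1h* or *Ces5a* (0 and 0, with up to 3 counts allowed by such a result). *Ces2b*, *Ces4a* and the symbols of low count are named here after their values were seen.

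The family lies on chromosome 8 in 2 runs in the RefSeq gene order, 1 with *Ces1a* to *Ces1h* and *Ces5a* and 1 with the Ces2, Ces3 and *Ces4a* genes. The 5 genes on either side of each run and those between were considered. Of 12 such genes for the Ces1 run 1 had enough counts, and of 20 for the other run 3. Most of the rest, mainly long noncoding RNAs and pseudogenes, were not among the listed symbols. *Lpcat2*, beside the Ces1 run, had 103 and 50 counts, a ratio of 0.886 (0.619 to 1.25). Beside the other run *Fam96b* had a ratio of 0.671 (0.553 to 0.81), *Cbfb*, for the partner of RUNX factors, 0.558 (0.491 to 0.633) and *D230025D16Rik* 2.83 (2.58 to 3.09). Of these 4, *D230025D16Rik* was called higher and none lower, where 26.0% of all genes tested were higher and 27.4% lower. With total counts the ratios, in the same order, were 0.491, 0.372, 0.309 and 1.57, and the calls turned to 0 higher and 3 lower. The shares of all genes were then 16.0% and 48.7%, and 4 genes are too few to set apart from them. Within the Ces1 run *Ces1e*, at 80.9-fold, lies between *Ces1d* at 368-fold and *Ces1f* at 274-fold. In the other run *Ces2b*, lower with TSA, lies between *Ces2a* and *Ces2c*, both higher.

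**Figure D5:**
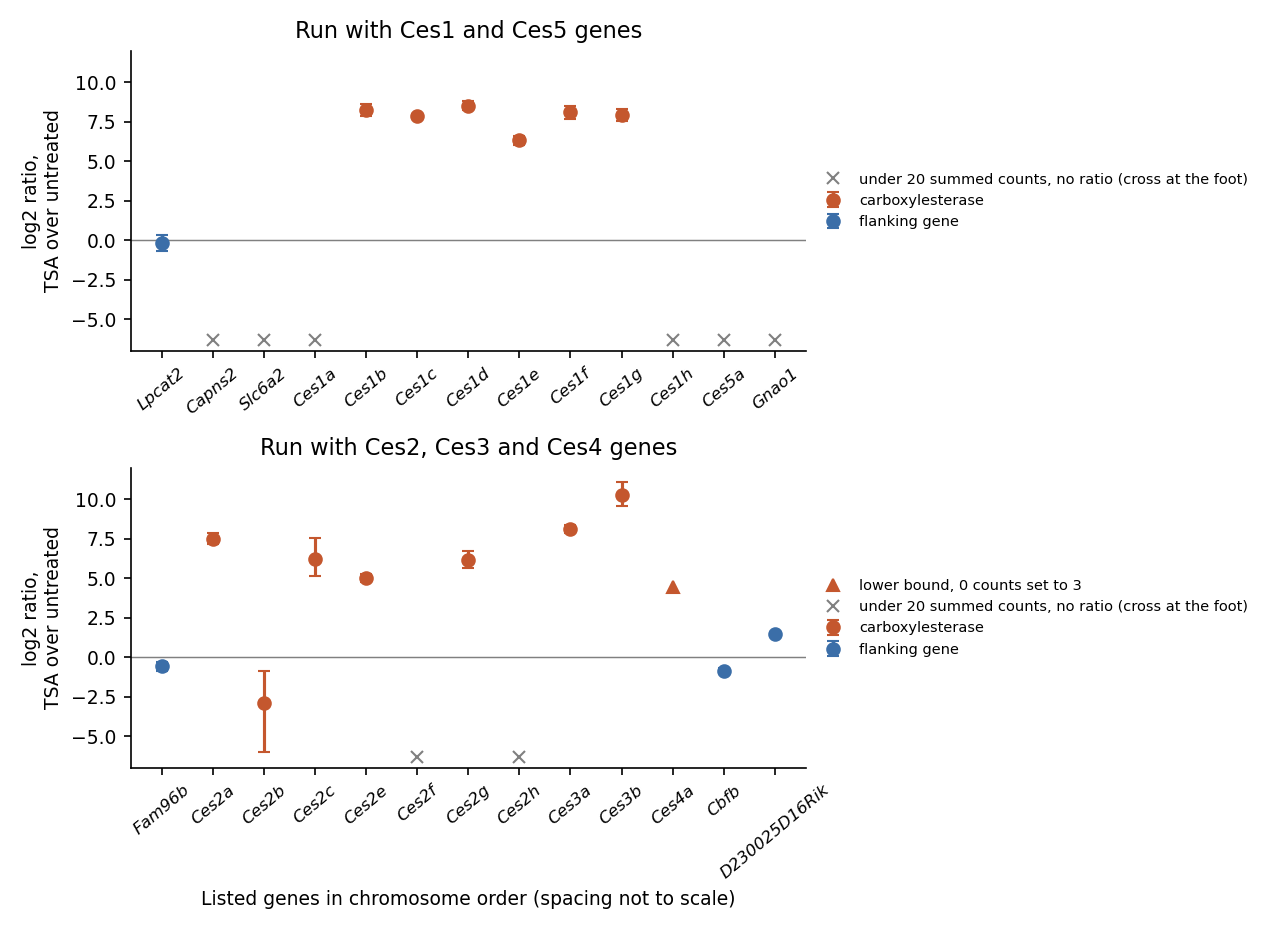
Log2 ratio TSA over untreated (TMM scaling, bars are 95% counting intervals) for listed genes in chromosome order, not to scale, with carboxylesterases in orange, flanking genes in blue, a triangle for the lower bound of *Ces4a* and gray crosses at the foot for genes under 20 summed counts. The carboxylesterases with a ratio stand at 4.45 or above except *Ces2b* at -2.89, and the 4 flanking genes have ratios between 0.558 and 2.83.

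Other esterase genes were also mostly higher with TSA. Of 14 esterases and paraoxonases 12 were called higher and none lower, with a median log2 ratio of 3.18 beside -0.11 for all genes. Among all genes tested the shares were 26.0% higher and 27.4% lower. Under total-count scaling 10 of the 14 were higher and none lower, against 16.0% and 48.7% of all genes. The median log2 ratio was then 2.33 beside -0.96 for all genes. *Pon1*, for the plasma paraoxonase carried on high density lipoprotein, had 87 and 15206 counts (319-fold, 258 to 398.5). *Notum*, for a secreted carboxylesterase that removes the lipid from WNT proteins, had 16 and 917 counts (105-fold, 64.1 to 184). *Esd*, for esterase D, had 3061 and 2892 counts and was not called (1.72-fold, 1.64 to 1.81).

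Genes listed for acylglycerol and phospholipid lipases were also mostly higher. The 17 genes include *Abhd5* and *G0s2*, which are lipase regulators and not lipases, both called higher. Of the 17, 13 were higher and 1 lower, with a median log2 ratio of 1.91, against 26.0% and 27.4% of all genes. With total counts 9 were higher and 2 lower, against 16.0% and 48.7%. *Mgll*, for monoglyceride lipase, was 6.41-fold (6.09 to 6.76) higher, *Lipa*, for the lysosomal acid lipase, 2.33-fold (2.22 to 2.44), *Lipe*, for hormone-sensitive lipase, 11.2-fold (8.31 to 15.4) and *Lipg*, for endothelial lipase, 186-fold (103 to 373). *Lpl*, for lipoprotein lipase, was the lower member, with 1355 and 146 counts, and *Pnpla2*, for adipose triglyceride lipase, was not called at 1.93-fold (both named after their values were seen).

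Of 17 genes of VLDL assembly and triglyceride storage 14 were higher and none lower, with a median log2 ratio of 2.14. With total counts 11 were higher and 1 lower. Among all genes the shares were 26.0% and 27.4%, or 16.0% and 48.7% with total counts. *Apob*, for the structural protein of VLDL, was 8.18-fold (8.08 to 8.29) higher, *Apoc3*, for an inhibitor of triglyceride clearance, 198-fold (175 to 226) and *Plin5*, for a lipid droplet coat protein, 39.5-fold (27.4 to 59). *Mttp*, for the protein that loads lipid onto apolipoprotein B, was not called at 1.37-fold (named after its value was seen).

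Another list held 16 genes for nuclear receptors and other factors of xenobiotic and lipid metabolism. In it *Ahr*, *Nfe2l2* and *Por* are not nuclear receptors. Of the 16, 13 were higher and none lower (median log2 ratio 2.05), against 26.0% and 27.4% of all genes. With total counts 8 were higher and 1 lower, against 16.0% and 48.7%. *Nr1i3*, for the drug-sensing receptor CAR, had 53 and 5017 counts (173-fold, 132 to 231), *Nr0b2*, for the small heterodimer partner, 18 and 857 (86.9-fold, 54.65 to 147), and *Por*, for the reductase that feeds cytochromes P450, 14.6-fold (13.9 to 15.2). *Hnf4a*, for a main hepatocyte transcription factor, was 2.46-fold (2.39 to 2.53) higher with TMM and at 1.36-fold with total counts, where it was not called. Genes listed for folding and retention in the endoplasmic reticulum, the compartment of most members, differed little with TMM scaling. The 16 genes include *Ggcx* and *Gusb*, which are neither chaperones nor retention receptors. Of the 16, 1 was higher and 1 lower, with a median log2 ratio of 0.27 beside -0.11 for all genes. With total counts 1 was higher and 4 lower, with a median of -0.58 beside -0.96 for all genes. *Hsp90b1* and *P4hb*, which had the most counts summed over both libraries, were at 1.12-fold and 1.49-fold, *Ero1lb*, for an oxidase of protein folding, was 15.5-fold (13.3 to 18.1) higher, and *Gusb* was the lower one.

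Outside the family, the 6 genes whose ratio lay nearest to that of the summed members, among 6167 genes with at least 1000 summed counts, were *Acsm5*, *Glyat*, *Dpys*, *Keg1*, *Mug1* and *Cyp2a4*. Their ratios lay between 227-fold and 236-fold. *Glyat* codes for glycine N-acyltransferase, *Dpys* for dihydropyrimidinase, which breaks down pyrimidines, and *Cyp2a4* for a steroid-hydroxylating P450. With 2 libraries this likeness rests on a single ratio a gene.

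Carboxylesterases are also made outside hepatocytes, and markers of other tissues moved as well. Among all genes tested 26.0% were higher and 27.4% lower, or 16.0% and 48.7% with total counts. Of 6 pancreatic acinar markers all 5 tested were higher with TSA, their summed level being 2.28 CPM without treatment and 68.4 CPM with TSA, with *Prss2*, *Pnlip* and *Amy2a5* at 0 in the untreated library. The 6 endothelial markers summed to 85.3 and 470 CPM (5 higher, none lower; 3 higher with total counts) and the 6 erythroid markers to 70.2 and 355 CPM (5 of 5 tested higher). The 6 B cell markers summed to 5.08 and 20.3 CPM (6 higher; 5 with total counts). Macrophage markers summed to 345.5 and 514 CPM (3 higher and 1 lower, or 2 and 2 with total counts), and stellate cell and fibroblast markers to 313 and 539 CPM (3 higher and 1 lower, or 3 and 3). Cholangiocyte markers summed to 49.3 and 50.7 CPM (3 higher and 2 lower of 5 tested, or 2 and 2). T and NK cell markers summed to 1.81 and 3.62 CPM (none of 2 tested called) and neutrophil markers to 1.42 and 6.92 CPM (2 of 2 tested higher). Adipocyte markers summed to 20.2 and 13.6 CPM (1 higher and 1 lower of 2 tested), with *Adipoq*, *Plin1*, *Lep* and *Retn* at 0 without treatment and at 1 to 10 counts with TSA. Intestinal markers summed to 27.5 and 70.8 CPM (2 higher, 1 lower of 3 tested), with *Cdx2* and *Sis* at 0 in either library, and kidney markers to 1.29 and 0 CPM. The 10 carboxylesterases summed to 55.4 and 12865 CPM on the same scale. The part of these cell types in the carboxylesterase ratios was not tested.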

How the data were processed

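PolyA RNA of mouse liver was profiled in 2 libraries, 1 per group. The authors deposited whole-number read counts per gene symbol and FPKM values, per the file headers. For each of the 14271 genes counted in both libraries, counts and FPKM together imply 1 whole gene model length (tolerance 0.1 base), the same in the untreated as in the TSA library. The submitters' processing notes name Trimmomatic, HISAT2, Bowtie2 and DESeq without roles or versions. The genome build, the strand setting and the treatment of reads shared by paralogs are not stated in the labels or headers. Per the labels' protocols RNA was extracted with the mirVana kit.

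Counts were scaled by TMM (edgeR 4.0.16, R 4.3.3; factors 1.34 untreated, 0.744 TSA). Other scalings were total counts, upper quartiles and DESeq2 1.42.0 size factors. Intervals are exact conditional binomial (Clopper-Pearson) at 95%. A count of 0 was set to 3. No molecular identifiers are named in the labels, so reads may repeat a molecule; intervals cover counting error only. With 1 library a group no p-value is given. The members and gene lists were chosen with earlier results of these data known. Named from each list are, of its genes with 50 summed counts or more, the top 2 by summed counts and the top 2 by absolute log2 ratio; for likeness, the 6 genes of nearest ratio; for neighbours, 5 genes on either side of each run. Exceptions are stated. *Ero1lb* was matched through its older symbol. Upstream regions are from RefSeq (GRCm38.p6), and transcripts, compared by longest open reading frame and 50-base stretches, from GENCODE M21. Because the build of the files is not given, coordinates are printed only for the upstream regions, in the RefSeq build. Calling was tested on simulated Poisson counts with most genes unchanged, which tests neither the spread between animals nor the choice of scaling.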

Additional observations from a re-analysis of the deposited data

How the results depend on the processing

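All 10 carboxylesterases were called higher under each of the 12 alternatives: 3 other scalings, 3 other filters on low counts, 2 added to every count, calls made from 1.5-fold or from 4-fold upward, calls that need the whole interval past 2-fold, FPKM with 0.1 added, and thinning of the untreated library. *Ces2e* had the smallest and *Ces3b* the largest ratio in all of them, with *Ces2e* from 17.1-fold to 32.6-fold and *Ces3b* from 506-fold to 1278-fold. The count filters and call thresholds left every member ratio unchanged, and the other scalings moved all 10 by a common factor. None of these could change the order, and no member lay near a count filter or a call threshold. Adding 2 to every count, or 0.1 to the FPKM, changed the order of some members between these ends. With total counts the summed members were at 128.6-fold, and of all genes 2084 were higher and 6339 lower. With deposited FPKM plus 0.1 these were 130.1-fold, 1983 and 6186. At a 4-fold threshold 1951 genes were higher and 1640 lower. Moving from TMM to total counts shifts the median log2 ratio of all genes from -0.11 to -0.96. By counts rather than FPKM, *Ces3b* stood at place 4 among the members with TSA instead of place 7. With 1 library a group, leaving out a replicate was not possible. No paired analysis was possible because each group has 1 library and the labels carry no replicate numbers.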
